A study of Mus musculus with 6 samples.

Results

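The Iroquois (Irx) genes encode homeodomain transcription factors of the TALE class, and all 6 mouse Irx genes were examined for H3K27me3 in ovarian granulosa cells (GCs). They were chosen by name, as 6 of 21938 annotated protein-coding genes, and they form 2 clusters of 3. IrxA holds Irx1, Irx2 and Irx4 on chromosome 13, and IrxB holds Irx3, Irx5 and Irx6 on chromosome 8. For each gene a window was read from 5000 bp upstream of the transcription start site (TSS) to the gene end, and for each cluster a window across all 3 genes and the sequence between them. These cluster windows held 27 of the 12430 regions in which any library had a peak. The GCs came from juvenile female ICR mice primed with gonadotropin, collected 6 h after injection of cyclophosphamide (CTX), an alkylating drug, or of phosphate-buffered saline (PBS), with 3 anti-H3K27me3 CUT&Tag libraries in each group. CUT&Tag cuts and tags the DNA next to an antibody-bound mark with a tethered transposase. Each library drew on cells pooled from several animals and the study's methods call the libraries biological replicates. The comparison asked whether genes that rise after CTX lose H3K27me3, a mark of silenced chromatin.

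H3K27me3 is written by the EZH1 and EZH2 enzymes of Polycomb repressive complex 2 and keeps lineage regulators silent in cells that do not use them. Homeobox clusters are classic Polycomb targets, with the mark placed over CpG-rich promoters of silent members and missing from active ones. In the ovary, Irx3 and Irx5 are the members known to act in pregranulosa and granulosa cells, where they support follicle formation and contact between the oocyte and its surrounding cells, while the other members are best known from heart, lung, limb and neural tissue.

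The libraries differed in depth. The depth recovered from the peak lists ranged from 1375 to 1957 reads per Mb of genome in the PBS group and from 1118 to 1630 in the CTX group, and the lists held 4244 to 6378 and 2916 to 4993 peaks. PBS replicates 1 and 3 and CTX replicate 2 were the deepest. A repressive mark cannot identify a cell type as RNA would. Of the 12 granulosa genes examined, among them Foxl2, Fshr and Amh, 0 carried a peak near a TSS in any library, but most genes of other ovarian cell types had none either (oocyte 6 of 6, theca 4 of 5, immune 3 of 4 and endothelial 2 of 3), so this does not tell the cell types apart. No batch or date was given for any library.

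Irx1, Irx2 and Irx6 carried a peak in their gene windows in all 6 libraries, Irx4 in 4 libraries, and Irx3 and Irx5 in 0 libraries. Among all protein-coding genes, 19.5% had a peak in at least 1 library, 4.53% in all 6 and 80.5% in none. The 2 clusters differed in arrangement. In IrxA all 3 genes had a peak in at least 4 libraries. In IrxB the mark was called at Irx6, at the distal end, and between Irx5 and Irx6, and the cluster side with Irx3 and Irx5 had almost no peak.

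**Figure D1:**
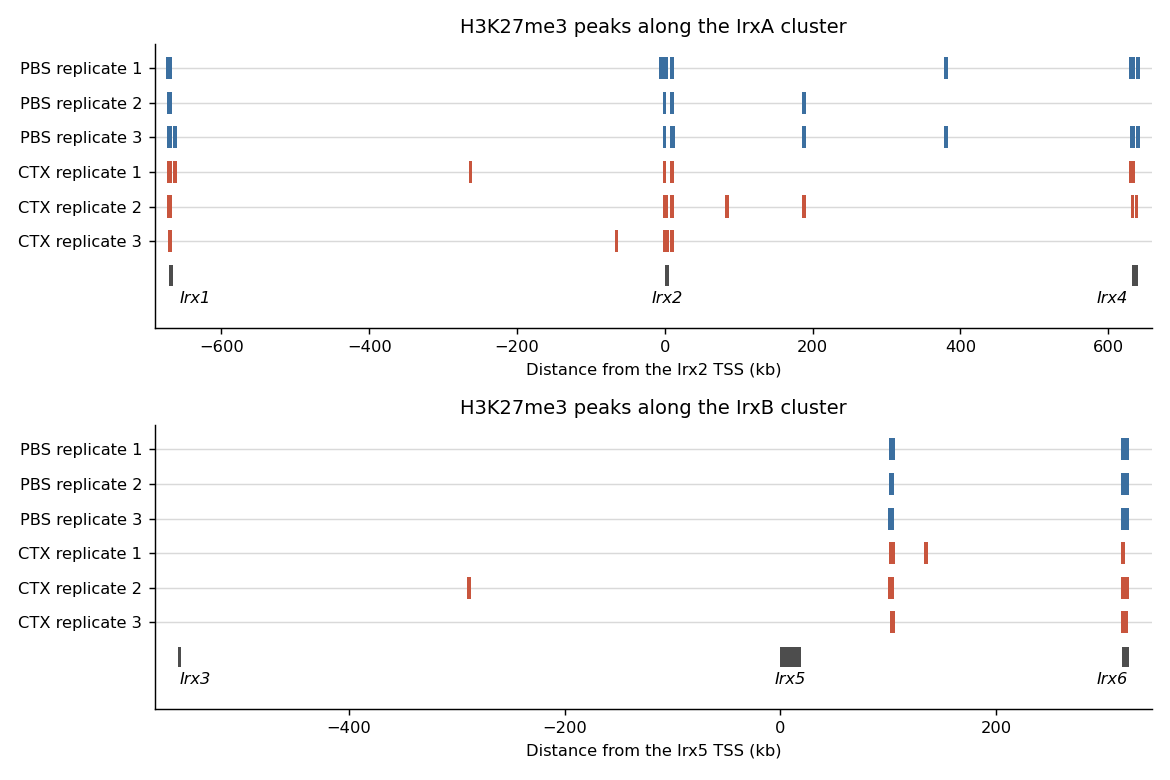
Peaks of the 6 libraries along the IrxA (top) and IrxB (bottom) clusters, plotted by distance in kb from the Irx2 and the Irx5 TSS; each row is 1 library, coloured blocks are peaks (short ones widened to be visible) and dark blocks are the Irx genes. Every library has peaks at Irx1, Irx2, Irx6 and about 100 kb past Irx5, and none has a peak at Irx3 or Irx5.

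The sequences that all 6 libraries marked are printed here beside the promoters of Irx3 and Irx5, where no library had a called peak. They are shown because the sites differ in their content of CpG, the dinucleotide that typifies Polycomb-bound promoters. They were read from the RefSeq GRCm38.p6 (mm10) sequence, with CG in capitals. Of each region found in all 6 libraries, the bases covered by every library are shown, up to their central 200, on the + strand. These lie at chr13:71959288-71959487 (Irx1 coding sequence), chr13:72628157-72628348 (upstream of Irx2), chr13:72638790-72638988 (downstream of Irx2), chr8:92461715-92461914 (between Irx5 and Irx6) and chr8:92675436-92675635 (an Irx6 intron). Of Irx3 and Irx5, the 200 bases before the TSS are shown in the direction of transcription, at chr8:91802068-91802267 on the - strand and chr8:92357425-92357624 on the + strand.
Irx1 coding sequence: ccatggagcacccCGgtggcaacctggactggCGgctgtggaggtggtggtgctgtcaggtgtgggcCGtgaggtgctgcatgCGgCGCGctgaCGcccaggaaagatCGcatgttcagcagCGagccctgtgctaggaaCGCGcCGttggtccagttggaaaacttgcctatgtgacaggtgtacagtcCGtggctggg
Irx2 upstream: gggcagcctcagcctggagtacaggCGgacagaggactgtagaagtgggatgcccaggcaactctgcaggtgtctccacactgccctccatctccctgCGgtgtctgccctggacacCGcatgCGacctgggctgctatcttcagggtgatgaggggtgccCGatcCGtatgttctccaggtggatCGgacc
Irx2 downstream: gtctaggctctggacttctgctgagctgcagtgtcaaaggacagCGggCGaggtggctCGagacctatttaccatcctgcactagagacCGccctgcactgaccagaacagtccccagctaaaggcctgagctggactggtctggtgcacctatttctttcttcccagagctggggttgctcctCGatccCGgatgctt
Irx5 to Irx6 intergenic: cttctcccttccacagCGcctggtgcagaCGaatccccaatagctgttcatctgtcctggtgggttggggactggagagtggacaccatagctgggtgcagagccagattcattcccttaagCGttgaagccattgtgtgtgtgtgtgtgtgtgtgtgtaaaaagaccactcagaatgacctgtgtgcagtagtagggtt
Irx6 intron: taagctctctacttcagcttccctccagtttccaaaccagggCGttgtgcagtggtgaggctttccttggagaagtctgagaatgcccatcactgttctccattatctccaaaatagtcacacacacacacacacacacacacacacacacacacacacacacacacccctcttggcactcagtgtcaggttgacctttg
Irx3 promoter: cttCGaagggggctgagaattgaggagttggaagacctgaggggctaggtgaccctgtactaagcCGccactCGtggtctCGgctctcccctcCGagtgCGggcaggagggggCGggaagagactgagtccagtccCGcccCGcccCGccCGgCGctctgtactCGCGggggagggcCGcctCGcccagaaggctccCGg
Irx5 promoter: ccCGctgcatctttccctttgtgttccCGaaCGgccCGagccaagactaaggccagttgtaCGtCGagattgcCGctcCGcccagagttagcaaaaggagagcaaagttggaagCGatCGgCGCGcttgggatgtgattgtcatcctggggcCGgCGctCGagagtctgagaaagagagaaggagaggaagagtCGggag

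The printed stretches held 13 CpGs at Irx1, 7 and 6 at the Irx2 sites, 3 at the intergenic site and 1 in the Irx6 intron. The promoters of Irx3 and Irx5, without a called peak, held 17 and 16, but promoters and these peak stretches are unlike elements. At the other genes the 200 bases before the TSS held 20 CpGs at Irx1, 15 at Irx2, 19 at Irx4 and 5 at Irx6. The IrxB stretches also held simple repeats, a GT run in the intergenic one and a CA run in the intron, and 20% and 33% of their bases were soft-masked. Over the whole regions, CpG density was 6.47 per 100 bp at Irx1, 5.98 and 3.62 at Irx2, 1.83 in the intergenic region and 2.85 at Irx6. The median over the 1116 regions on chromosomes that all 6 libraries shared was 3.88 (quartiles 2.06 and 5.61). The 2000 bp around the TSS were CpG-rich at every Irx gene, with 165 CpGs at Irx1, 174 at Irx2, 117 at Irx4, 137 at Irx3, 172 at Irx5 and 106 at Irx6. The promoters of Irx3 and Irx5 were thus within the range of the other Irx promoters in CpG content. Those were not all marked at the TSS used here. Within 2000 bp of it a peak stood in 6 libraries at Irx2 and Irx6, in 4 at Irx4 and in 0 at Irx1.

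Irx1 (ENSMUSG00000060969.9, chr13:71957921-71963723, - strand), a regulator of lung, limb and neural patterning, was close to Irx6 in coverage. Its window had 1128, 665 and 1371 covered bases in the PBS libraries and 1070, 1091 and 716 in the CTX libraries. The groups overlapped, with means of 1055 ± 359 and 959 ± 211 bp (SD, n = 3 each; two-sided exact permutation p = 0.7). The peak found in every library (chr13:71958991-71960133) lay in coding sequence, 4.16 kb downstream of the outermost TSS. Short annotated transcripts start inside the gene, so this peak counted as a promoter peak within 2000 bp of any annotated TSS in 6 libraries, but in 0 libraries when the outermost TSS alone was used. A second peak lay upstream, centred at -2.25 kb from the TSS, in PBS replicate 3 and CTX replicate 1.

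Irx2 (ENSMUSG00000001504.10, chr13:72628820-72634198, + strand), the neighbour often expressed with Irx1, had 1400, 340 and 317 covered bases in PBS and 322, 460 and 408 in CTX. PBS replicate 1, the deepest library, stood far above the rest, and the other 5 libraries lay between 317 and 460 bp (exact permutation p = 0.9). The peak of all 6 libraries (chr13:72628061-72628478) was centred 0.55 kb upstream of the TSS, over an exon of the divergent lincRNA Gm20554. Another site present in all 6 libraries (chr13:72638463-72639125) was intergenic, 9.97 kb downstream of the Irx2 TSS and past the gene end.

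Irx4 (ENSMUSG00000021604.15, chr13:73260479-73269608, + strand), which maintains ventricular identity in the heart, had 1367, 0 and 1069 covered bases in PBS and 623, 996 and 0 in CTX. The libraries without a peak were PBS replicate 2 and CTX replicate 3, the shallowest of each group, and the groups overlapped (exact permutation p = 0.6). The most frequent Irx4 peak was intronic (chr13:73261300-73262423), 1.38 kb past the TSS, in 2 PBS and 2 CTX libraries. The 10 kb around it held 815 and 869 reads in the PBS libraries with the peak and 657 and 692 in the CTX libraries with it, as scaled reads (set to 1000 reads per Mb in every library). These are close to the 638 to 894 reads around the Irx2 upstream peak in the same 4 libraries.

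Irx6 (ENSMUSG00000031738.14, chr8:92674288-92680956, + strand), known from bipolar cells of the retina, had 1844, 707 and 1203 covered bases in PBS and 674, 1162 and 798 in CTX. The means were 1251 ± 570 and 878 ± 254 bp, and the groups overlapped (exact permutation p = 0.4). The region of all 6 libraries (chr8:92674730-92675746) was centred 0.95 kb past the TSS, over the 5′ part of the gene. A second site in coding sequence, 4.50 kb past the TSS (chr8:92678347-92679238), was called in 3 PBS and 2 CTX libraries, and it ranked low within the lists, with a mean percentile of 12.7 by q-value.

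Irx3 (ENSMUSG00000031734.13, chr8:91798525-91802067, - strand) and Irx5 (ENSMUSG00000031737.11, chr8:92357625-92376286, + strand) had 0 covered bases in every library. From Irx3 the nearest peak was 657 to 659 kb away in 4 libraries, and it was 118 kb away in CTX replicate 1 and 267 kb away in CTX replicate 2. From Irx5 it was 102 to 104 kb away, downstream, in 5 libraries and 101 kb in PBS replicate 3. The sequence between Irx3 and Irx5 held 1 peak of 200 bp, in CTX replicate 2, and 0 peaks in the other libraries. The lists called summits with as few as 4 reads where the background was at the genome-wide floor, in every library. The lists hold called peaks and no signal elsewhere, so a flat or weak domain over Irx3 or Irx5 was not detectable here, and the absence of a call is not a measured absence of the mark. Irx3 and Irx5 also stayed without a peak under every threshold and window tried, but no other outcome was possible. The thresholds only dropped called peaks, and the widest window began 10000 bp upstream, far short of the nearest peak.

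**Figure D2:**
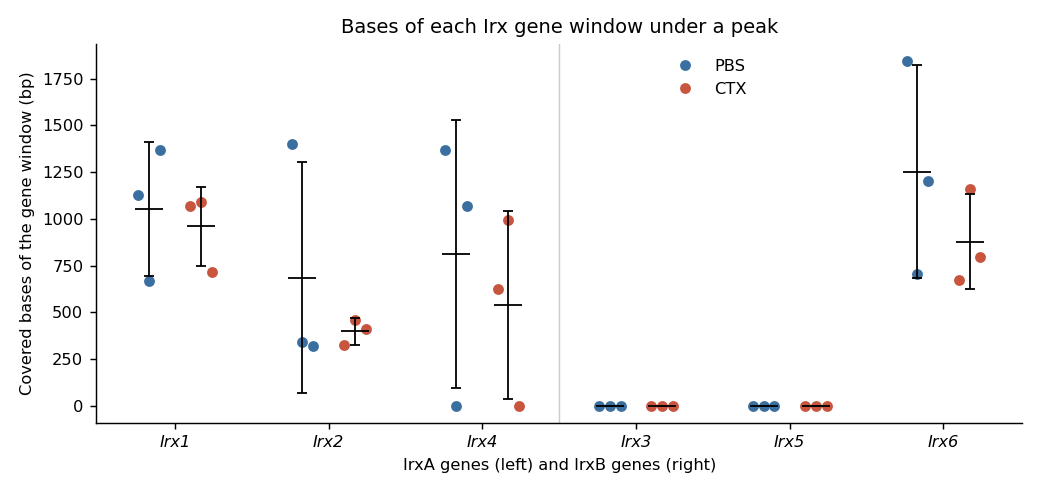
Bases under a peak in each Irx gene window (bp, y axis) for the IrxA genes (left) and the IrxB genes (right); points are libraries, bars are the mean and SD of 3. PBS and CTX points overlap at Irx1, Irx2, Irx4 and Irx6, and all points of Irx3 and Irx5 are at 0.

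As a share of the gene window, Irx1 was covered to 9.32% ± 2.48, Irx6 to 9.12% ± 3.81, Irx2 to 5.21% ± 4.09 and Irx4 to 4.78% ± 4.07 (SD, n = 6 libraries), and Irx3 and Irx5 to 0%. Among the 4270 protein-coding genes with any peak, these shares lay at percentiles 96.0, 95.9, 90.2 and 89.3. Each gene was compared with each other within libraries in 15 pairs by two-sided exact sign-flip permutation tests. Irx1 and Irx6, next to each other in this order, did not differ beyond their spread (difference 0.20 ± 3.20 percentage points, p = 0.875, exact), nor did Irx2 and Irx4 (0.43 ± 3.70 points, p = 0.812, exact). Irx2 was below Irx6 in 6 of 6 libraries, with a difference of -3.91 ± 2.01 points (exact p = 0.0312). After adjustment over the 15 pairs that p was 0.0521, the lowest any pair reached, so no step of this order passed 0.05. The unadjusted 0.0312 is the smallest that 6 libraries allow, so the adjusted test cannot decide a step that held in 6 of 6 libraries. The protein-coding genes closest to each member in covered share over the 6 libraries, of 1715 candidates with windows of similar length, were Olfr94 and Gimap5 for Irx1 (mean absolute difference 1.07 and 1.16 percentage points), Hoxb7 and Efna3 for Irx2 (1.16 and 1.29), Trh for Irx4 (0.89) and Gm17509 and Alkal2 for Irx6 (1.25 and 1.27).

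Covered bases did not separate the groups at any Irx gene. Of the 4 marked members, 0 had PBS and CTX libraries that did not overlap, in either direction, while of all 4270 gene windows with a peak 14.0% did not overlap with PBS higher and 0.281% with CTX higher. The CTX mean minus the PBS mean was -95.7 bp at Irx1, -289 at Irx2, -272 at Irx4 and -373 at Irx6. Among the 993 genes marked in every library 93.9% were lower in CTX, with a median change of -435 bp. The number of Irx genes with a promoter peak was 4, 3 and 4 in PBS and 4, 4 and 3 in CTX, equal in the mean.

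Across the whole IrxA window (chr13:71957921-73269608), 4949, 1550 and 4241 bp were covered in the PBS libraries and 2693, 3616 and 1535 bp in the CTX libraries. The means were 3580 ± 1793 and 2615 ± 1043 bp (SD, n = 3 each; two-sided exact permutation p = 0.4). Across IrxB (chr8:91798525-92680956) it was 4406, 2686 and 3541 bp against 2177, 3279 and 1349 bp, with means of 3544 ± 860 and 2268 ± 968 bp (exact permutation p = 0.2). In both clusters the 3 deepest libraries had the most covered bases, whichever group they came from. With every list cut to its strongest 3316 summits, the difference of the means shrank from -965 to -219 bp in IrxA and from -1276 to -509 bp in IrxB (exact permutation p = 0.7 and 0.4). IrxA held 12, 4 and 10 peaks in PBS and 7, 8 and 5 in CTX (exact permutation p = 0.5), and IrxB 6, 4 and 5 against 5, 8 and 5 (exact permutation p = 0.7). The median rank percentile of the summits by q-value within each list was 66.4 ± 18.7 and 64.2 ± 10.8 in IrxA and 59.0 ± 15.8 and 64.7 ± 9.7 in IrxB. All 7 of these cluster and promoter comparisons had an adjusted p of 1, and 3 against 3 libraries cannot give an exact p below 0.1.

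IrxB was the more densely covered cluster in each library, by a small margin. Covered bases per kb of window were 3.29 ± 1.22 in IrxB and 2.36 ± 1.08 in IrxA (SD, n = 6 libraries), and IrxA was below IrxB in 6 of 6 libraries, with a difference of -0.93 ± 0.56 (two-sided exact sign-flip permutation p = 0.0312, the smallest that 6 libraries allow). Both were far below the 4 Hox clusters, the other large homeobox clusters of the genome. These had 30.7 ± 16.0 covered bases per kb against 2.74 ± 1.10 over both Irx windows, a difference of -27.9 ± 14.9 that held in 6 of 6 libraries (exact sign-flip p = 0.0312). The Irx windows are long (1312 kb in IrxA and 882 kb in IrxB) and mostly lie between genes. The Hox windows are 102 to 179 kb long and hold 9 to 13 protein-coding genes each, against 3 in each Irx window. The values per kb are therefore not a comparison per gene. A peak within 2000 bp of any annotated TSS stood in all 6 libraries at 3 of 6 Irx genes and 6 of 39 Hox genes. In covered bases, not divided by window length, the order of the 2 Irx clusters was not the same. IrxA had 3097 ± 1415 bp and IrxB 2906 ± 1077 bp (SD, n = 6 libraries), and IrxA was below IrxB in PBS replicate 2 alone.

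The 27 Irx regions were divided into 20 in IrxA and 7 in IrxB. Of these, 5 were present in all 6 libraries (18.5%, against 9.10% of all regions) and 13 in 1 library. The 5 regions in all libraries are the Irx1, Irx2 and Irx6 sites named above, the site downstream of Irx2, and an intergenic region 104 kb past the Irx5 TSS (chr8:92460958-92462380). No Irx region was specific to a group: 0 were present in all 3 PBS and no CTX libraries, against 1.64% of all regions, and 0 in all 3 CTX and no PBS libraries, against 0.0885%. Without PBS replicate 2, the shallowest PBS library, 2 IrxA regions met the PBS rule, as did 5.52% of all regions then (chr13:73009292-73010048, intergenic before Irx4, and chr13:73268756-73269150, at the 3′ end of Irx4).

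**Figure D3:**
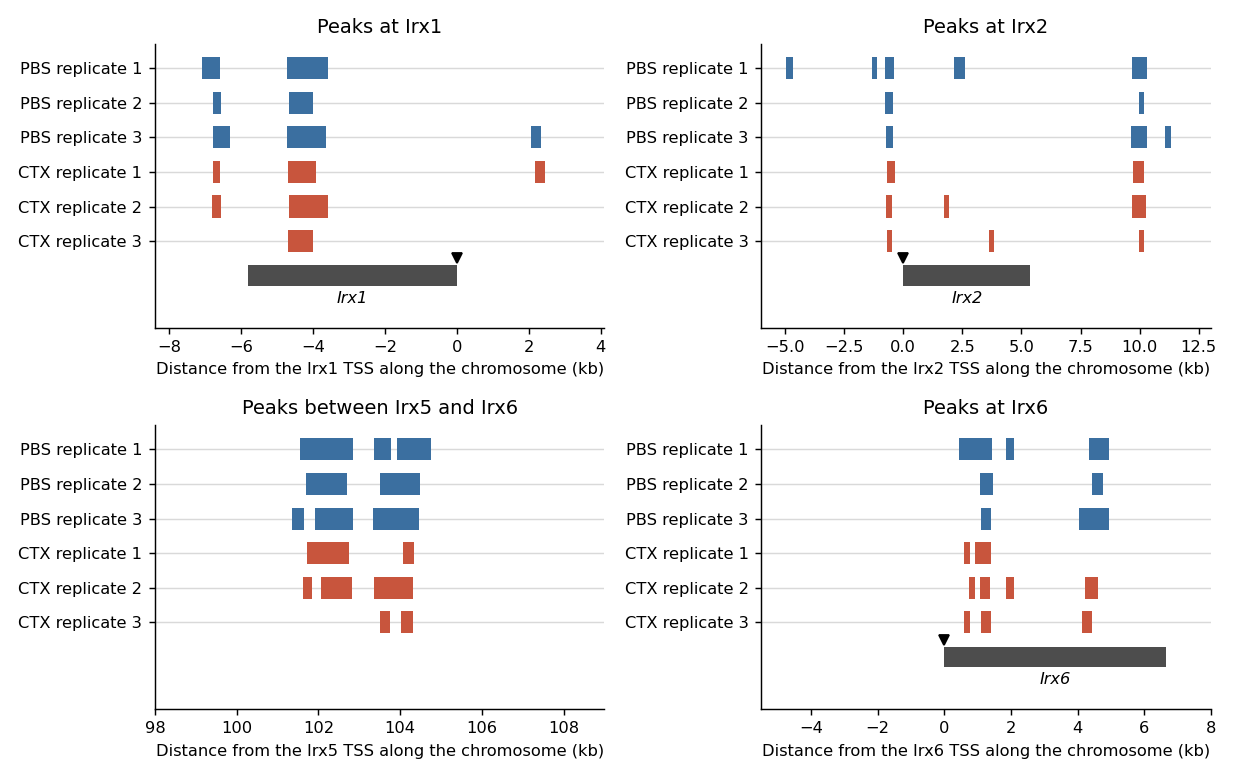
Peaks of each library at Irx1, at Irx2, between Irx5 and Irx6, and at Irx6, drawn to scale by distance in kb from the named TSS along the chromosome; blue is PBS, red is CTX, dark bars are genes and triangles mark the TSS. Of the peaks found in every library, those at Irx1 and Irx6 lie inside the gene. Those at Irx2 lie just before and about 10 kb after the TSS. Peaks of fewer libraries also lie on both sides of Irx1 and before, within and past Irx2. The intergenic peaks beyond 100 kb from Irx5 stand alone.

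Pileup, the largest number of reads stacked at a point of a region, was compared at the 5 regions after the same scaling. At the Irx1 coding site it was 44.4, 50.9 and 52.1 in PBS and 41.9, 34.4 and 34.0 in CTX. At the Irx2 upstream site it was 47.5, 51.6 and 56.4 in PBS and 40.5, 33.1 and 35.8 in CTX. All 3 CTX libraries were below all 3 PBS libraries at both sites, with log2 fold changes of -0.41 ± 0.15 and -0.50 ± 0.15 (limma, on pileup plus 1, ± SE). At the site downstream of Irx2 the values were 25.0, 23.3 and 25.7 against 22.3, 23.9 and 17.9, and at Irx6 33.2, 28.4 and 35.7 against 26.5, 30.7 and 30.4, with overlapping groups.

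The intergenic region beyond Irx5 went the other way. Its scaled pileup was 24.5, 30.5 and 27.6 in PBS and 35.6, 32.5 and 34.0 in CTX, with means of 27.6 ± 3.0 and 34.0 ± 1.5 (SD, n = 3 each; exact permutation p = 0.1), and every CTX library was above every PBS library. Its covered length was 268, 964 and 551 bp in CTX against 1250, 969 and 1129 bp in PBS, so that CTX replicate 2 and PBS replicate 2 were almost equal (exact permutation p = 0.1, adjusted over the 5 regions 0.5). The region had a neighbour (chr8:92458989-92460480, 102 kb past the Irx5 TSS) in 5 libraries, with scaled pileups of 27.1, 33.4 and 27.6 in PBS and 35.6 and 34.4 in CTX. CTX replicate 3, the shallowest library, had no peak there. The q-value rank of the highest summit had mean percentiles of 95.6 in PBS and 83.5 in CTX at Irx1, and 94.5 and 73.0 at Irx2 upstream. It had 72.8 and 63.6 downstream of Irx2, 63.9 and 63.2 at Irx6, and 85.5 and 96.3 at the intergenic region. The exact permutation p was 0.9 downstream of Irx2 and at Irx6, and 0.1 elsewhere (adjusted over the 5 regions 0.167). Ranks over all regions were not compared between the groups.

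Read against all 1130 regions with pileups in every library, 2 of 5 Irx regions did not overlap with PBS higher (34.1% of all) and 1 of 5 with CTX higher (5.93% of all). In the limma fit over these regions, 7.08% (80 regions) were called lower in CTX and 4.42% (50 regions) higher at a Benjamini-Hochberg adjusted p below 0.05. Centred on the median region, the calls were 3 lower and 55 higher. Of the Irx regions 1 was called lower, the Irx2 upstream site (adjusted p = 0.042, limma), and 0 were called higher. The Irx2 call did not hold when pileups were centred on the median region (adjusted p = 0.464, limma) or left unscaled (0.114), nor when any library but PBS replicate 1 was left out (0.0775 to 0.141). The adjusted p was 0.0783 at Irx1 and 0.153 at the intergenic region (limma, log2 fold change 0.30 ± 0.15). The median region was at -0.25 on the log2 scale, and 83.1% of regions had a lower mean in CTX. Relative to that median, the Irx1 and Irx2 sites were at -0.17 and -0.25, the downstream Irx2 site at 0.04, Irx6 at 0.10 and the intergenic region at 0.55, and the centred fit called the last (0.55 ± 0.14, adjusted p = 0.0325, limma).

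The local background that the peak caller used at a summit gives the number of reads in the 10 kb around it, which rests on more reads than the pileup. At all 113 Irx summits it was a whole number of reads to within 0.1. At the Irx1 site the scaled reads in 10 kb were 712, 753 and 732 in PBS and 580, 592 and 543 in CTX, with means of 732 ± 20 and 571 ± 25 (SD, n = 3 each). At the Irx2 upstream site they were 810, 832 and 894 against 638, 680 and 631, and at the downstream site 344, 364 and 378 against 278, 291 and 276. At Irx6 they were 592, 589 and 634 against 488, 540 and 505. At the intergenic site they were 349, 369 and 374 against 348, 326 and 274, so that PBS replicate 1 and CTX replicate 1 were almost equal.

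**Figure D4:**
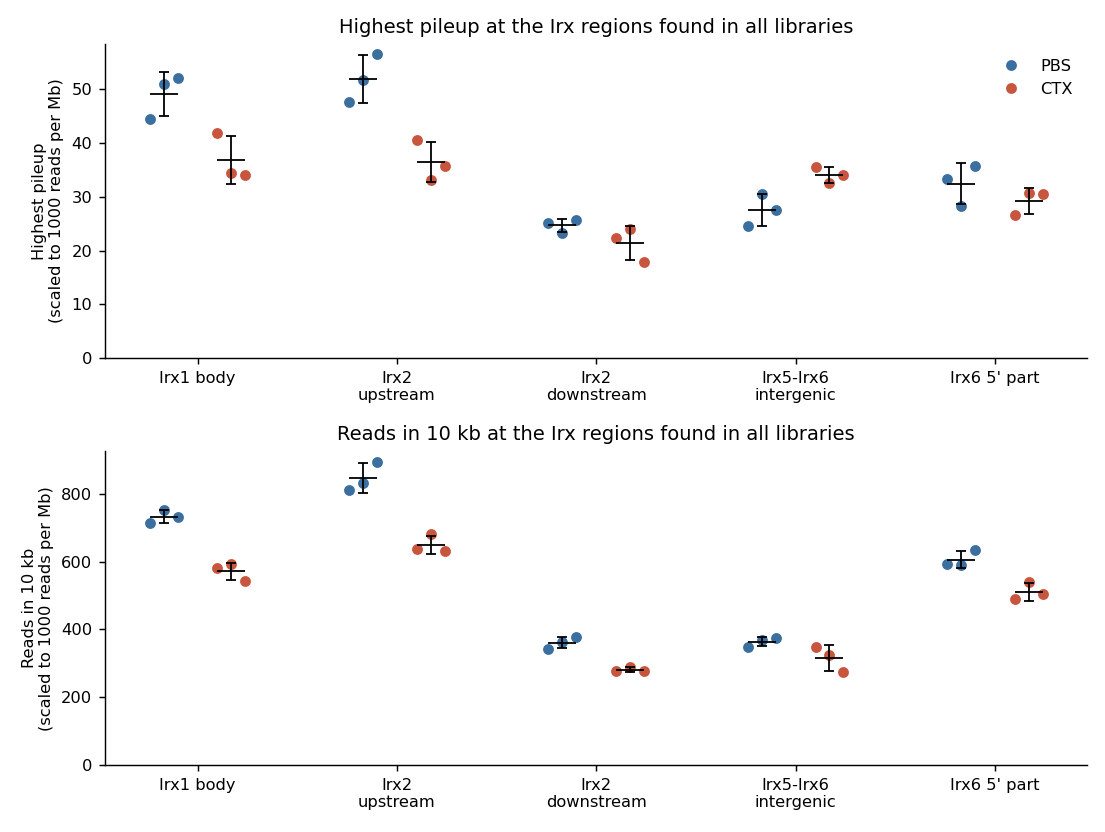
Highest pileup (top) and reads in the surrounding 10 kb (bottom), both scaled to 1000 reads per Mb, at the 5 Irx regions present in all 6 libraries; points are libraries and bars are the mean and SD of 3. CTX points lie below PBS points in every region by reads in 10 kb, and above them by pileup in the intergenic region alone.

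By this measure all 5 Irx regions were lower in every CTX library than in every PBS library, as were 73.7% of the 1130 regions, and 0 were higher, as were 6.64%. In the same limma fit, 72.2% of regions were called lower and 6.02% higher in CTX, and all 5 Irx regions were called lower. The log2 fold changes were -0.36 ± 0.08 at Irx1, -0.38 ± 0.08 and -0.36 ± 0.08 at the Irx2 sites, -0.24 ± 0.08 at Irx6 and -0.21 ± 0.09 at the intergenic region (± SE), with limma adjusted p from 3.04e-04 at the Irx2 upstream site to 0.0309 at the intergenic region. The median of all regions was -0.32, and after centring on it 0 of the 5 Irx regions were called (adjusted p 0.43 to 0.601, limma). By this measure the Irx sites did not differ from the median marked region beyond their error. The calls at the intergenic region and at Irx6 also depended on single libraries. For the intergenic region the limma adjusted p was 0.0628 without PBS replicate 2, 0.0696 without PBS replicate 3 and 0.279 without CTX replicate 3. For Irx6 it was 0.0608 without CTX replicate 1 (limma). At the intergenic region the pileup was higher and the reads in 10 kb lower in CTX as scaled to depth, but with centring on the median region both were positive (0.55 and 0.09, log2).

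In level, by reads in 10 kb and by pileup, the Irx2 upstream and Irx1 sites were among the denser marked regions. By reads in 10 kb they lay at mean percentiles 95.2 and 92.4 of the 1130 regions, followed by Irx6 at 88.2, the intergenic region at 64.6 and the site downstream of Irx2 at 61.0. Between libraries the Irx1 site ranged from 91.3 to 93.5 and the Irx2 upstream site from 94.7 to 95.7, whereas the intergenic region ranged from 59.8 to 72.9. By pileup the mean percentiles were 90.3 at Irx2 upstream, 89.5 at Irx1, 71.1 at Irx6, 69.6 at the intergenic region and 46.2 downstream of Irx2. The order was another by q-value rank of the highest summit within each list. There the means were 90.9 at the intergenic region, 89.5 at Irx1, 83.7 at Irx2 upstream, 68.2 downstream of Irx2 and 63.6 at Irx6.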

How the data were processed

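The deposited narrow peak lists, 1 per library, were used for 3 PBS and 3 CTX libraries. The authors aligned reads to mm10 with BWA, removed duplicates and reads that did not map uniquely, and ran MACS2 2.1.0 to call peaks at a q-value of 0.05. For each summit the deposited lists give a score, the fold enrichment (a ratio of pileup to local background) and the −log10 p-value and q-value. No control library is named in the sources used here.

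Overlapping intervals were merged within a library, then across libraries into regions (at least 1 bp shared). Whole-number pileups and backgrounds were solved from fold enrichment and −log10 p (99.98% to 100% of summits), tested on simulated data. The genome-wide floor of the background gave the depth. Counting error of the reads limits how precisely a pileup is known, and no spike-in was used here. Genes came from GENCODE M21 (GRCm38). Groups were compared by exact permutation tests, genes and clusters within libraries by sign-flip tests, and regions by limma 3.58.1 (trend, pseudocount 1) in R 4.3.3, with Python 3.11.15 and scipy 1.17.1.

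All 6 Irx genes and every region of 6 libraries were named, and other genes of the windows where a peak lay within 2000 bp of a TSS. For each marked gene the 2 closest in covered share were named, and a few results on genes outside the Irx family are not reported here. Lists of other TALE homeobox genes, Hox genes, and granulosa, theca, oocyte, immune and endothelial genes were counted. The members and lists were chosen with earlier results of these data known. Alternatives were q-values of at most 0.01 and 1e-05, equal summit numbers (3316), joining within 1000 bp, other window and promoter sizes, scaling, pseudocount, a filter at a mean pileup of 10 reads, a replicate block and leaving out each library. Reads in 10 kb and the outermost TSS were chosen after seeing the data. Same-numbered libraries correlated at 0.08, -0.12 and -0.04 in their deviations from group means over 1130 regions, so the numbers were not treated as pairs.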

Additional observations from a re-analysis of the deposited data

How the results depend on the processing

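The differences below are CTX minus PBS. The number of IrxB peaks changed sign at a q-value of at most 1e-05 (-0.333). The IrxB median rank changed sign at a q-value of at most 0.01 (-2.13 percentile points) and with equal summit numbers (-6.23). Leaving out 1 library moved the IrxA rank from -11.1 to 7.54 and the IrxB rank from -1.63 to 14.1. It moved covered bases from -290.5 to 62.5 bp at Irx1, from -473 to 68.2 at Irx2, from -678 to 5.17 at Irx4 and from -645.5 to -77 at Irx6, -1980 to -281 in IrxA and -1781 to -816 in IrxB, and equal summit numbers gave 126 bp at Irx4 and 89 at Irx6. None of these differences passed a test. With 5 libraries the sign-flip test cannot go below 0.0625, so the density differences lost their call, at -1.05 to -0.746 for IrxA against IrxB and -31.5 to -24.5 for Irx against Hox, with the sign kept. PBS-specific Irx regions numbered 0 to 2. In the limma fit of pileups, leaving out 1 library gave 4 to 98 regions lower and 18 to 51 higher in CTX. Centring gave 3 lower, and unscaled pileups 16 lower and 5 higher. Centring turned the downstream Irx2 site to 0.0422 and Irx6 to 0.104 (log2). The replicate block gave 42 lower and 40 higher, and under this pairing the Irx2 upstream site had an adjusted p of 0.0721 (limma). For reads in 10 kb, leaving out 1 library gave 717 to 854 lower, centring gave 48 lower and turned the intergenic region to 0.0938 and Irx6 to 0.0622, and under the block the intergenic region had an adjusted p of 0.061 (limma). The cause of these shifts was not tested. Irx4 and Irx6 rest on few strong peaks: at a q-value of at most 1e-05 a peak stood in 3 libraries at each, in 5 at Irx1 and in 6 at Irx2.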

Other observations

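Among homeobox genes of the TALE class outside the Irx family, Meis1, a cofactor of Hox proteins, had a promoter peak in 3 PBS and 0 CTX libraries. Of the 39 Hox genes, a promoter peak stood at 23, 11 and 22 in PBS replicates 1 to 3 and at 13, 20 and 12 in CTX replicates 1 to 3. The counts were highest in the deepest libraries, PBS replicates 1 and 3 and CTX replicate 2. The share over all promoters was not counted, so these are not read as a difference between the groups. Among genes of other ovarian cell types, 1 of 5 theca genes was marked (Ptch1, the hedgehog receptor, in 2 PBS and 2 CTX libraries), 1 of 4 immune genes (Ptprc, in CTX replicate 2), 1 of 3 endothelial genes (Kdr, in PBS replicate 1) and 0 of 6 oocyte genes.

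The cluster windows overlapped 24 other annotated genes, mostly noncoding RNAs and pseudogenes. A peak lay within 2000 bp of a TSS at Gm20554, the lincRNA divergent from Irx2, in 6 libraries, and at the lincRNA D730050B12Rik, between Irx2 and Irx4, in PBS replicates 2 and 3 and CTX replicate 2. Irx3os, antisense to Irx3, and Crnde, divergent from Irx5, had none. A peak just past the 3′ end of Irx1, outside its window by 517 to 784 bp, was called in 5 libraries and was not called in CTX replicate 3.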
